A study of Homo sapiens with 2 samples.

Results

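Nuclear receptors are transcription factors that bind DNA through a pair of zinc fingers and, in most members, bind a small fat-soluble ligand through a separate domain. The genes described here are 43 human nuclear receptor genes, taken by symbol from the platform annotation of an Affymetrix exon array, out of 18923 symbols on it. All 43 had probesets that carried their symbol alone, 754 probesets in total, with 3 to 30 per gene and a median of 17. A probeset is a small group of probes placed in 1 stretch of a transcript, so an exon array reads each gene at many places.

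Total RNA came from 1 lysate of MKN45P, a highly metastatic human gastric cancer line, and from 1 lysate of MKN45, its parental line. Each line was read on 1 array, and both were grown in the same serum-containing medium, for which the labels name no added receptor ligand. The labels name gene expression and alternative splicing in the 2 lines as the subject of the study. Since neither line has a second array, no difference could be tested and no p-value is given, and the interquartile range over the probesets of a gene describes spread within these 2 arrays only, not error between cultures. Values are the submitters' log2 values, and a difference of 1 means 2-fold. The Pearson r between the 2 arrays was 0.953 over 877986 probesets, which are not independent replicates. Of 7 epithelial markers, 5 carried signal, with differences of 0.55 for CDH1, 0.83 for EPCAM, 0.19 for CLDN4, -0.08 for KRT18 and -0.21 for KRT8, so they lay in both directions. CDH1 had 10.74 in MKN45P and 10.26 in MKN45. KRT19, at -0.76, had only 2 probesets, and KRT20 lay at 1.93 in MKN45P and 1.89 in MKN45. None of 4 endothelial and 1 of 5 fibroblast markers carried signal. Of 4 immune markers read here, TYROBP and LYZ did and PTPRC and CD3E did not, PTPRC being at 1.65 in MKN45P and 1.66 in MKN45. All 4 mesothelial markers did, MSLN and CALB2 being higher in MKN45P and UPK3B and WT1 lower, and their part in the differences below was not tested.

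By ligand, the family falls into receptors for steroids, for retinoids, thyroid hormone and vitamin D, for fatty acids, oxysterols, bile acids and foreign compounds, and into orphans for which no ligand is established or needed. Retinoid X receptors are the shared partners with which many of the others pair on DNA. In the digestive tract the family is known for sensing bile acids and dietary lipids, for control of epithelial growth by retinoids and vitamin D, and for links to the circadian clock.

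Sequences of 5 windows at transcription starts are shown because their genes are among those whose values are followed along the transcript below, or are their close relatives. They are RefSeq windows of GRCh38.p14, 250 bases before to 50 bases after a start, printed 5′ to 3′ on the strand of the gene. Of the 43 genes, 39 had at least 1 window, 93 windows in total. NR1D2 and NR1D1 encode the clock repressors REV-ERB beta and alpha, and capitals mark CACGTG, the E-box that the clock activators bind. The NR1D2 window, 1 of its 2, is chr3:23945871-23946170 on the plus strand, and the NR1D1 window is chr17:40100540-40100839 on the minus strand.
NR1D2: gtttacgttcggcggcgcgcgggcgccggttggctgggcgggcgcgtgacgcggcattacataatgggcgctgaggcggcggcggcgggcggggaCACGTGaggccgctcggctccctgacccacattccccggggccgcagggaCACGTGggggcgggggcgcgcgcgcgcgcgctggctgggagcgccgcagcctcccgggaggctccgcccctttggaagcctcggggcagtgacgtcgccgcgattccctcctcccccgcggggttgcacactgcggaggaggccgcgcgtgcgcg
NR1D1: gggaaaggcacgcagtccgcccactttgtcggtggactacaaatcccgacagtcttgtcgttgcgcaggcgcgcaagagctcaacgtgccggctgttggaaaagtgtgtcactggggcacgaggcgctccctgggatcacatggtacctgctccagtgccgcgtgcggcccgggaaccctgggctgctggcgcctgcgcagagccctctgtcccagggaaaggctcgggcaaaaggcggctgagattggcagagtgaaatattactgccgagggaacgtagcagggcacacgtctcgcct
The NR1D2 window held CACGTG at 2 places, starting at bases 96 and 146, and the NR1D1 window held none. CACGTG occurred in 9 of the 93 windows of the family (9.68%) and in 7.26% of all 35116 windows, both strands being the same for this palindrome. NR1H3, the oxysterol receptor LXR alpha, and NR5A2, the receptor LRH-1 of gut and liver, had, in 1 of 4 windows and in 1 of 2, the hexamer AGGTCA, the core element that many nuclear receptors bind, which is in capitals. The windows are chr11:47248050-47248349 and chr1:200027460-200027759, both on the plus strand.
NR1H3: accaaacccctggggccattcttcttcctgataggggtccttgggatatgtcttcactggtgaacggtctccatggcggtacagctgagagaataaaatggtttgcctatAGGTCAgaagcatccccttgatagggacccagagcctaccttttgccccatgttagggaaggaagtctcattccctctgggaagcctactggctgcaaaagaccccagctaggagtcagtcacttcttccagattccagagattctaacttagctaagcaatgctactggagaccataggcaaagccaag
NR5A2: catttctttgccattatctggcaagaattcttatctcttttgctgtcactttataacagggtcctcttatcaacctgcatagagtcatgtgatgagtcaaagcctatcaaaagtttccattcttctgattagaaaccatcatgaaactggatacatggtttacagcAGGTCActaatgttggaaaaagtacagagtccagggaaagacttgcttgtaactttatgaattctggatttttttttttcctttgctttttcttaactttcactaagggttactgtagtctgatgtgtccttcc
AGGTCA on either strand occurred in 15 of the 93 windows (16.1%), from 10 genes, and in 13.8% of all windows. No window of the family held 2 copies of this hexamer in a row spaced by 1 base or by 4 bases, which 0.0228% and 0.0199% of all windows held. For NR2F2, which encodes the orphan receptor COUP-TFII, 1 of 2 windows, chr15:96332315-96332614 on the plus strand, holds coding sequence. The 63 bases in capitals match the cysteine pattern of the first zinc finger, the feature that gives the family its DNA binding.
NR2F2: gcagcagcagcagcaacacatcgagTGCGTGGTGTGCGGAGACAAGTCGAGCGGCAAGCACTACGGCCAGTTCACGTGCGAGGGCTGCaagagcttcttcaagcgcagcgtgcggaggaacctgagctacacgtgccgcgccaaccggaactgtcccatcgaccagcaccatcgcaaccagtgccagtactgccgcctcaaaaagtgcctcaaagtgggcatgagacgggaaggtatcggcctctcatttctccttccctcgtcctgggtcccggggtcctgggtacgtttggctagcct
This pattern was read in the 3 forward frames and was found in 0.0256% of all windows, and in this 1 of the family. A match of letters is a description of the sequence and not evidence of binding.

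A probeset was taken to carry signal when its value in at least 1 line reached 2.76, the 75th percentile of all values of both arrays. A gene was taken to carry signal when it had at least 4 probesets and at least 50% of them did. By this rule 23 of the 43 nuclear receptor genes carried signal, or 54.8% of the 42 with at least 4 probesets. Among all 16937 genes with as many probesets the share was 55.0%, so the family stood close to the array as a whole. The receptors with signal were VDR, RARA, RARG, RXRA, RXRB, THRA, THRB, all 3 PPAR genes, NR1H2, NR1H3, NR3C1, ESRRA, NR1D1, NR1D2, NR4A1, NR4A2, NR2C2, NR2F1, NR2F2, NR2F6 and NR5A2. With the 90th percentile as the cut, 7 of the 43 receptor genes carried signal, as did 3821 of all 16937 genes with at least 4 probesets.

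The 20 others lay near the low end of the scale in both lines, with median levels between 1.64 and 2.43 in MKN45P and between 1.69 and 2.53 in MKN45. They include the estrogen and progesterone receptors. ESR1, estrogen receptor alpha, had signal at 4 of 24 probesets, with a median level of 1.87 in each line. ESR2, estrogen receptor beta, had it at 3 of 30, and PGR, the progesterone receptor, at 1 of 17. The bile acid receptor gene NR1H4 (FXR) and the retinoid receptor gene RXRG had no probeset with signal. The xenobiotic receptor genes NR1I2 (PXR) and NR1I3 (CAR), which induce drug-metabolizing enzymes in liver and gut, had it at 4 of 20 and 4 of 16. NR3C2, the mineralocorticoid receptor, had it at 5 of 15 and RORA, an activator of the clock, at 5 of 28. RORB, ESRRB, ESRRG, RARB, NR4A3 and NR2E1 had 1 to 4 such probesets each, while NR2E3 had 7 of 16, NR2C1 9 of 22, NR5A1 5 of 12 and NR6A1 8 of 23. NR0B2, the corepressor SHP that lacks a DNA-binding domain, had 3 probesets and none with signal. The median differences of these 20 genes ran from -0.42 to 0.14, and array values as low as these understate differences in RNA. Single probesets lay farther apart. Of the 67 with signal in these genes, 5 in as many genes were 2-fold lower in MKN45P and 0 were 2-fold higher. Among probesets with signal of all genes with signal, 7.33% were 2-fold lower and 18.4% higher. The shares over all genes without signal were not computed, so the 5 cannot be called more than usual. Probeset 2638199 of NR1I2 had 3.95 in MKN45P and 7.45 in MKN45, a difference of -3.50 that was the largest of any nuclear receptor probeset here, while the 3 others with signal in NR1I2 lay between -0.31 and 0.15. Probeset 2920333 of NR2E1 had 3.01 in MKN45P and 4.84 in MKN45. The 3 others of these 5, in NR3C2, NR5A1 and NR6A1, lay between -1.11 and -1.01.

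**Figure D1:**
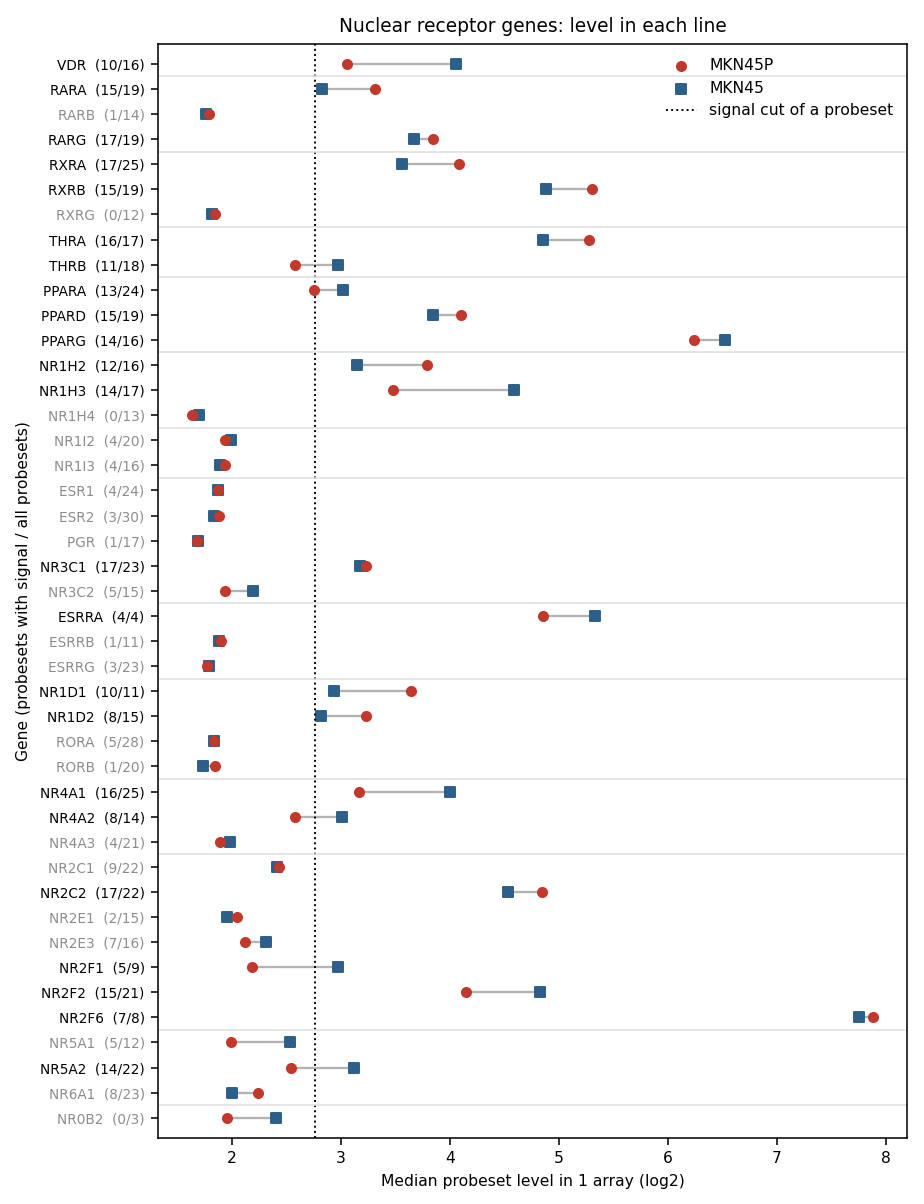
Median probeset level (log2) of all 43 nuclear receptor genes in MKN45P (circles) and MKN45 (squares), 1 array each, grouped by receptor class, with the number of probesets with signal over all probesets beside each name and genes without signal in grey. The dotted line is the 2.76 cut for a probeset. Levels of different genes rest on different probes and cannot be compared. The gap within a gene is the difference of median levels, not the median difference over probesets used in the text. Among genes with signal, these have opposite signs for ESRRA, PPARA and NR2F6.

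Among the 23 genes with signal, VDR was the only one past 2-fold in either direction, where 8.14% of all genes with signal were, and it was lower in MKN45P. None was 2-fold higher, where 6.45% of the 9313 genes with signal were, and 1 was 2-fold lower, where 1.69% of those genes were. The median difference of the 23 genes was 0.06 (interquartile range -0.36 to 0.19) and that of all genes with signal was 0.10 (-0.14 to 0.43). The difference was positive in 13 of the 23 receptors (56.5%) and in 61.2% of all genes with signal. Over only the probesets with signal, 1 receptor was 2-fold higher, NR1D2, where 12.3% of 8871 genes were, and 1 was 2-fold lower, again VDR, where 2.91% were. Single probesets showed more of the losses. Of 290 probesets with signal in these genes, 32 (11.0%) were 2-fold higher in MKN45P and 37 (12.8%) were 2-fold lower, where 18.4% and 7.33% of such probesets of all genes with signal were. Most of the 37 lay in 4 genes, with 8 in VDR, 7 in NR4A1 and 6 each in NR2F2 and NR1H3.

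**Figure D2:**
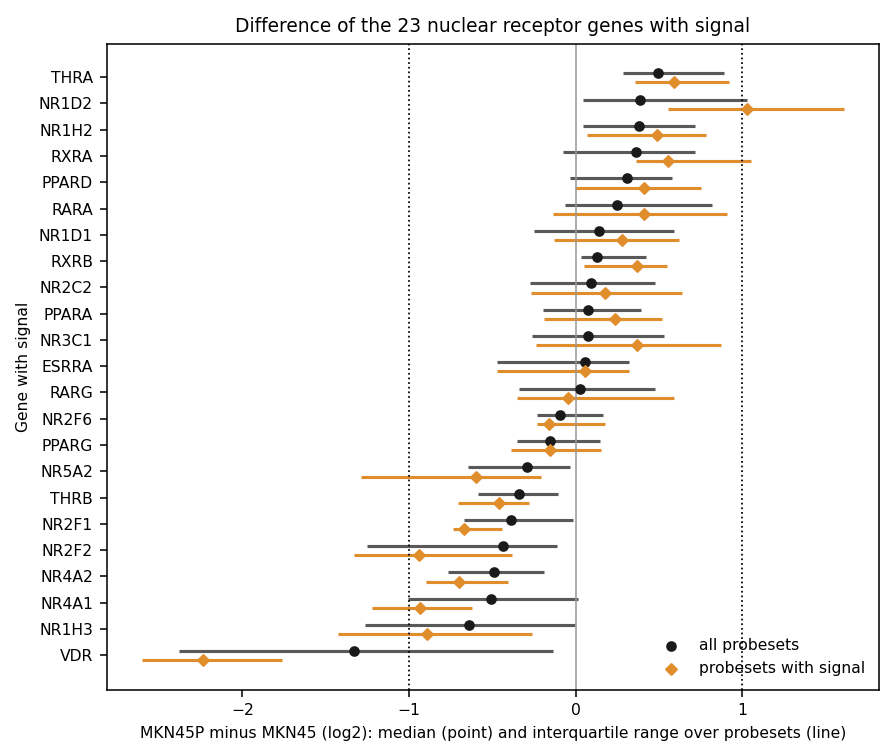
MKN45P minus MKN45 in log2 units for the 23 nuclear receptor genes with signal, as the median (points) and interquartile range (lines) over all probesets of a gene (circles) and over its probesets with signal (diamonds). VDR lies past the dotted 2-fold line at -1.33 and -2.23, NR1D2 reaches 1.03 over probesets with signal, and all other medians lie inside 2-fold.

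VDR encodes the vitamin D receptor, which pairs with a retinoid X receptor and controls calcium uptake and the growth of gut epithelium. Its median level was 3.06 in MKN45P and 4.05 in MKN45, and its difference was -1.33 (interquartile range -2.38 to -0.14 over 16 probesets), or 2.51-fold lower. It was lower in MKN45P at 15 of the 16 probesets. Only 81 of the 9313 genes with signal had a lower difference. Over the 10 probesets with signal the levels were 4.30 in MKN45P and 6.89 in MKN45, and the difference was -2.23 (-2.60 to -1.76), or 4.70-fold lower.

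The 16 probesets of VDR fell into separate runs of probeset numbers. On the 21 chromosomes examined, 1 to 7 and 9 to 22, the numbers formed a run of plus-strand genes followed by a run of minus-strand genes: 99.4% of 13998 genes with a RefSeq strand lay in the run of their strand, and the order of numbers followed the order of gene starts, with a Spearman rho of at least 0.92 in each of their runs (genes are not independent replicates). VDR has 12 probesets in the minus-strand run of chromosome 12 and 4 in its plus-strand run, so these 4 were placed against the opposite strand. The strand of VDR was taken from the run that holds most of its probesets. The 12 on its own strand had a median difference of -1.96 (-2.53 to -0.80), all of them lower in MKN45P, and the 4 others a median of -0.09. In the order 5′ to 3′, the 8 probesets from the fifth to the last were each lower by more than 1. Probeset 3452822 had 6.23 in MKN45P and 8.996 in MKN45, probeset 3452827 had 4.35 in MKN45P and 7.37 in MKN45, and probeset 3452819, the last, had 5.54 in MKN45P and 7.88 in MKN45. Of the 4 before them, 3 lay under the cut in both lines. When each line's median level was taken first and then subtracted, VDR gave -0.996, just under 2-fold, and put NR1H3 past 2-fold instead, at -1.11.

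**Figure D3:**
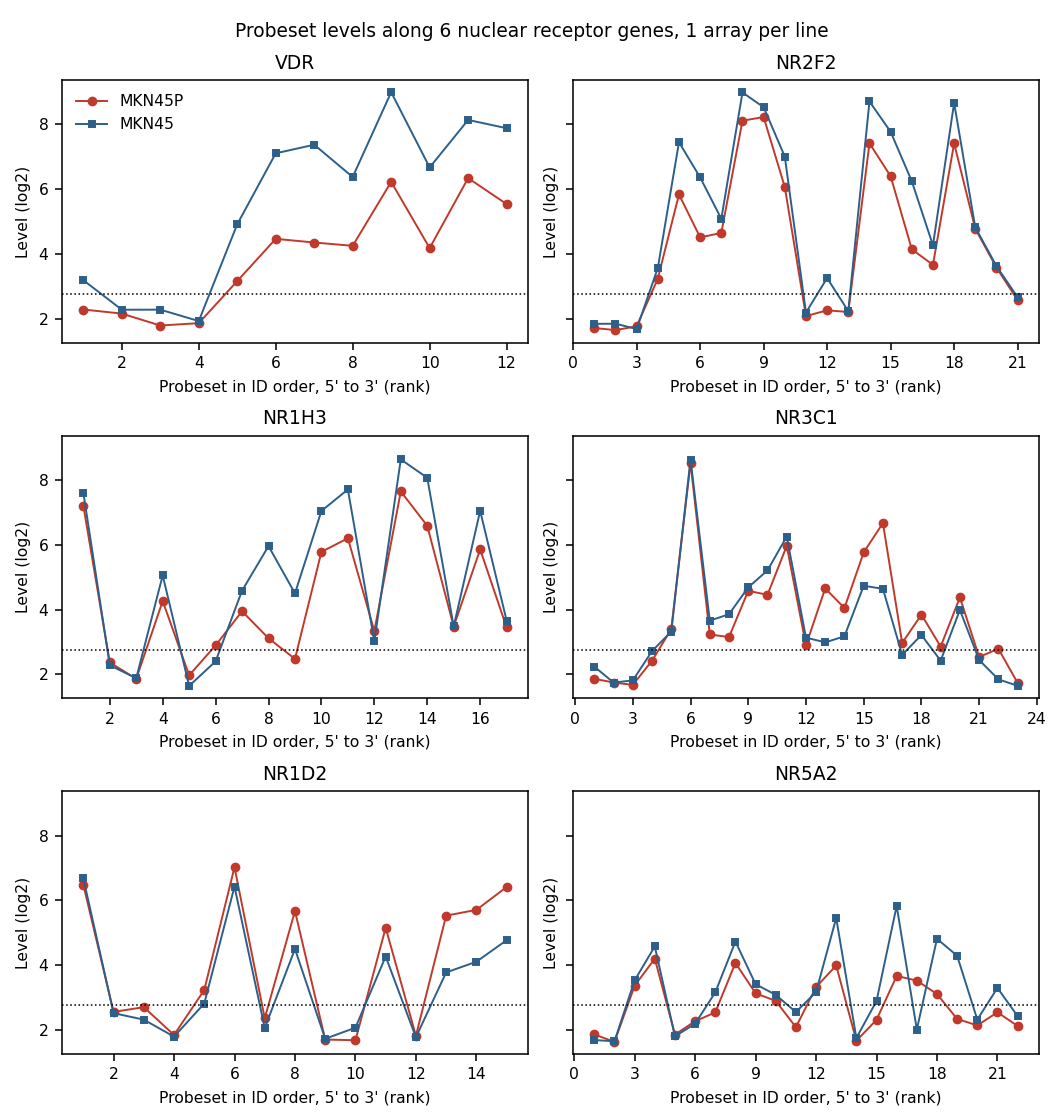
Level (log2) of each probeset in MKN45P (circles) and MKN45 (squares), 1 array each, along 6 nuclear receptor genes in the order of probeset numbers turned 5′ to 3′, with own-strand probesets only and the 2.76 cut dotted. The lines are far apart along the last 8 probesets of VDR, close at the 5′ side and apart at the 3′ side of NR3C1 and NR1D2, and lower in MKN45P at nearly all probesets of NR2F2.

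The retinoid receptors with signal differed little over all their probesets. RXRA, a common partner receptor, had levels of 4.08 in MKN45P and 3.56 in MKN45 and a difference of 0.36 (-0.08 to 0.72 over 25 probesets). RXRB had 5.30 in MKN45P and 4.88 in MKN45, and was higher in MKN45P at 16 of 19 probesets by a median of 0.13. RARA, a retinoic acid receptor, had 3.31 in MKN45P and 2.83 in MKN45 (difference 0.25, -0.06 to 0.82). RARG, the retinoic acid receptor best known from skin, had 3.85 in MKN45P and 3.67 in MKN45 and a difference of 0.03 (-0.34 to 0.48 over 19 probesets), but 3 of its probesets stood apart from the rest. The most 5′ one, 3456109, had 4.66 in MKN45P and 7.15 in MKN45. Probeset 3456103, the fifth, had 3.85 in MKN45P and 6.005 in MKN45, and 3456083, next to the 3′ end, had 2.33 in MKN45P and 4.79 in MKN45. These 3 were more than 4-fold lower in MKN45P, while the 16 others of RARG lay between -0.38 and 0.94.

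The thyroid hormone receptor genes differed in opposite directions. THRA had levels of 5.28 in MKN45P and 4.85 in MKN45 and was higher in MKN45P at 15 of 17 probesets, by a median of 0.49 (0.28 to 0.89). THRB had 2.58 in MKN45P and 2.97 in MKN45 and was lower at 15 of 18 probesets, with a median of -0.34 (-0.58 to -0.11). Neither reached 2-fold. Their interquartile ranges did not overlap, but these are spreads over probesets within 2 arrays and do not test the opposite directions. The 3′ end of THRA overlaps that of NR1D1 on the opposite strand, and 10 probesets that carry both symbols were left out of both genes. Of these, 2 lay in the plus-strand run, that of THRA, with a median difference of 0.87, and 8 in the minus-strand run, that of NR1D1, with a median of 0.36 (range -0.03 to 1.15).

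PPARG, the fatty acid receptor that drives fat storage and is expressed in gut epithelium, differed little between the lines. Its levels were 6.24 in MKN45P and 6.52 in MKN45, with a difference of -0.15 (-0.35 to 0.15 over 16 probesets). None of its 14 probesets with signal was 2-fold apart. PPARD, a more widely expressed relative, had 4.10 in MKN45P and 3.85 in MKN45 (0.31, -0.03 to 0.58), and PPARA, the regulator of fat burning in liver, had a difference of 0.08 (-0.19 to 0.39), which was -0.27 between the median levels.

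The 2 oxysterol receptor genes, whose products sense excess cholesterol, also lay on opposite sides of 0. NR1H3 had levels of 3.48 in MKN45P and 4.58 in MKN45 and was lower in MKN45P at 13 of 17 probesets, with a median of -0.64 (-1.26 to -0.004). Its probeset 3329701 had 3.12 in MKN45P and 5.96 in MKN45, a difference of -2.85. NR1H2, which encodes the broadly expressed LXR beta, had 3.79 in MKN45P and 3.14 in MKN45 and was higher at 13 of 16 probesets, with a median of 0.38 (0.04 to 0.72).

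NR3C1, the glucocorticoid receptor gene, had a median difference near 0 that joined probesets of both directions. Its levels were 3.23 in MKN45P and 3.18 in MKN45, and its difference was 0.07 (-0.26 to 0.53 over 23 probesets). When its 17 probesets with signal were split in 5′ to 3′ order, the first 8 had a median difference of -0.26 and the last 8 of 0.75. Probeset 2879338, among the last 8, had 6.67 in MKN45P and 4.64 in MKN45. Probeset 2879346, the middle one that belongs to neither part, had 4.65 in MKN45P and 2.99 in MKN45. On the 5′ side probeset 2879374 had 4.46 in MKN45P and 5.21 in MKN45, and probeset 2879381 had 8.53 in MKN45P and 8.63 in MKN45. The split of this gene was noticed in the values and then applied to every gene.

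The genes that carried signal included 20 receptors with at least 8 own-strand probesets with signal. Of these 20, 3 had 3′ and 5′ parts that differed by 1 or more, NR3C1 (1.01), NR1D2 (1.11) and NR5A2 (-1.19). Among all 5441 genes so split, 6.86% did. The median of 3′ minus 5′ was -0.06 for the receptors and 0.19 (interquartile range -0.07 to 0.47) for all genes. With the 90th percentile as the signal cut, 10 receptors could be split and PPARD alone passed 1. NR3C1, NR1D2 and NR5A2 had fewer than 8 probesets with signal by that cut, so they could not be split. The share over all genes was not computed for that cut.

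The REV-ERB genes were higher in MKN45P by less than 2-fold over all probesets. NR1D2 had levels of 3.23 in MKN45P and 2.82 in MKN45, was higher at 12 of 15 probesets and had a median difference of 0.39 (0.04 to 1.03). Over its 8 probesets with signal the levels were 5.69 in MKN45P and 4.38 in MKN45 and the difference was 1.03 (0.55 to 1.61). The 3 most 3′ probesets were higher by 1.601 to 1.753, while the most 5′ one had 6.49 in MKN45P and 6.68 in MKN45. NR1D1 had 3.64 in MKN45P and 2.94 in MKN45, and a difference of 0.14 (-0.25 to 0.59 over 11 probesets), against 0.70 between the median levels. The window of NR1D1 shown above has no CACGTG and 1 of the 2 windows of NR1D2 has 2, and nothing on binding was measured.

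NR4A1 and NR4A2, immediate early receptors induced by growth factors and stress, were lower in MKN45P by less than 2-fold. NR4A1 had levels of 3.16 in MKN45P and 3.999 in MKN45, was lower at 18 of 25 probesets and had a median difference of -0.51 (-1.004 to 0.01). Over its 16 probesets with signal it was lower at 15, with a median of -0.93 (-1.22 to -0.62). NR4A2 had 2.58 in MKN45P and 3.005 in MKN45 and was lower at 12 of 14 probesets, with a median of -0.49 (-0.77 to -0.19). All 8 of its probesets with signal were lower.

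The COUP-TF genes, orphan receptors with roles in development, were lower in MKN45P as well. NR2F2 had levels of 4.15 in MKN45P and 4.82 in MKN45 and was lower at 20 of 21 probesets, with a median of -0.43 (-1.25 to -0.11). All 15 of its probesets with signal were lower, by 0.04 to 2.10, with a median of -0.94. NR2F1, its close relative, had 2.18 in MKN45P and 2.98 in MKN45 and a difference of -0.39 (-0.67 to -0.02 over 9 probesets). The 2 genes are alike in sequence and RNA of one can bind probes of the other, so their values are uncertain to that extent. NR2F6, another member of the branch, had 7.88 in MKN45P and 7.76 in MKN45 and a median difference of -0.09 (-0.23 to 0.17). NR2C2, the testicular receptor TR4, had a difference of 0.10 (-0.27 to 0.48 over 22 probesets). Its probeset 2612219 had 4.76 in MKN45P and 2.54 in MKN45.

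NR5A2, which controls bile acid and steroid genes, had levels of 2.54 in MKN45P and 3.12 in MKN45 and was lower at 17 of 22 probesets, with a median of -0.29 (-0.65 to -0.04). It was lower on both sides and farther so on the 3′ side, where the last 7 probesets with signal had a median of -1.47, and the first 7 had one of -0.28. Probeset 2374167 had 3.67 in MKN45P and 5.83 in MKN45, and 2374200 had 2.34 in MKN45P and 4.29 in MKN45. Within that stretch 2374175 went the other way, with 3.52 in MKN45P and 2.01 in MKN45. ESRRA, an estrogen-related receptor of energy metabolism, had only 4 probesets, with levels of 4.85 in MKN45P and 5.33 in MKN45 and a difference of 0.06 (-0.47 to 0.32), which was -0.03 after quantile normalization.

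A probeset's index is its difference minus that of its gene, and an index of 2 or more in size was called large. Among 286 probesets with signal in 22 receptors, 5 were large (1.59% of such probesets in all genes with signal were). With a gene's mean difference in place of its median 3 were large, and with the 90th percentile as the signal cut 0 were. They were the 3 of RARG (-2.51, -2.49 and -2.18), 3329701 of NR1H3 (-2.21) and 2612219 of NR2C2 (2.13).

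Partners, ligand enzymes and targets of the receptors were read from 13 lists that hold 211 genes, of which 121 carried signal. Of these 121 genes, 11 were 2-fold higher in MKN45P and 6 were 2-fold lower, beside the shares of 6.45% and 1.69% over all genes with signal. The lists were chosen with earlier results of these data known, so no enrichment can be read from these counts. The median difference of the 121 genes was 0.07. With the 90th percentile as the signal cut, 6 list genes were 2-fold higher and 3 lower. The retinoid list then had 0 higher and the estrogen receptor list 0 lower. The shares over all genes with signal were 11.7% and 2.75% with that cut. With the difference of median levels, 19 list genes were higher and 10 lower, beside shares of 13.6% and 3.27% over all genes with signal.

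Coactivators were mostly close between the lines. NCOA1, the steroid receptor coactivator SRC-1, had levels of 3.78 in MKN45P and 2.57 in MKN45 and was higher at 40 of 42 probesets, by 1.197 (0.55 to 1.74). NCOA2, the related coactivator SRC-2, was higher at 22 of 26 by 1.03 (0.22 to 1.31). With the mean over probesets 1 coactivator was 2-fold higher, and with the 90th percentile as the signal cut 0 were, since fewer genes then carry signal. Of the 14 other coactivators with signal none passed 2-fold, PRMT1 (-0.55) and NCOA6 (0.54) being the farthest apart. Among 12 corepressors with signal none passed 2-fold either, and NCOR1, the main corepressor of unliganded receptors, was at 0.59 and TBL1XR1 at 0.53.

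In the retinoid list, 9 of 24 genes carried signal, and 2 were 2-fold lower and 2 higher in MKN45P. ALDH1A1, which makes retinoic acid, had levels of 1.79 in MKN45P and 4.45 in MKN45 (-2.66, -3.17 to -1.05 over 15 probesets). CRABP1, a retinoic acid carrier, had 4.83 in MKN45P and 5.84 in MKN45 (-1.29). RARRES3, a retinoid-responsive gene that interferon also induces, had 3.48 in MKN45P and 2.07 in MKN45 (1.27), and RBP4, the plasma retinol carrier, had 3.97 in MKN45P and 2.78 in MKN45 (1.23, -0.02 to 2.88). RDH10 (0.67) and ALDH1A3 (0.33) followed. CYP26A1, the retinoic acid-degrading enzyme and a classic target of the receptors, had signal at 1 of 11 probesets.

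No gene of the vitamin D list passed 2-fold over all its probesets, with 6 of 14 carrying signal. CYP24A1, the main gene that VDR induces, lay at 1.66 in MKN45P and 1.68 in MKN45, with signal at 2 of 16 probesets. DHCR7, which consumes the precursor of vitamin D, was at -0.88, also over its probesets with signal. The hydroxylase CYP2R1 was at 0.71, and at 1.05 over its 10 probesets with signal. Since CYP24A1 was near the low end in each line, a difference in it could not be read from these arrays.

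Of 10 genes with signal in the list of LXR and FXR targets, 2 were 2-fold higher in MKN45P. ABCA1, the cholesterol exporter, had levels of 4.07 in MKN45P and 1.95 in MKN45 and was higher at 57 of 62 probesets (1.996, 0.76 to 2.84). PLTP, a phospholipid carrier, had 6.69 in MKN45P and 4.40 in MKN45 (1.55, 1.12 to 2.34). FASN was at -0.73 and MYLIP at 0.48, so members of this list lay in both directions.

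TXNIP, a regulator of glucose uptake, was the only gene of 12 with signal among PPAR targets past 2-fold, with levels of 10.61 in MKN45P and 8.15 in MKN45 (2.07, 1.75 to 2.70). HADHA (0.95) and PLIN2 (0.68, under its older symbol ADFP) came next. Of 5 PXR and CAR targets with signal, ABCC2 (-1.88) and CYP2B6 (-1.30) were 2-fold lower and ABCC3 (1.31) 2-fold higher, with ALAS1 at 0.59 and CYP3A5 at -0.47. CYP2B6 has a near-identical pseudogene and its value is uncertain. The genes of PXR and CAR had no signal by the rule above, although 1 probeset of the PXR gene NR1I2 was the one at -3.50.

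Among 14 glucocorticoid and mineralocorticoid receptor targets and chaperones with signal, 2 were 2-fold higher. ANXA1, an anti-inflammatory annexin, had levels of 7.74 in MKN45P and 5.29 in MKN45 (1.89, higher at all 15 probesets), and ERRFI1, an inhibitor of EGF receptors, had 8.36 in MKN45P and 6.41 in MKN45 (1.65). SGK1 was at -0.999, just under 2-fold, and at -2.79 over its probesets with signal, and NFKBIA, an inhibitor of NF-kappa-B, at -0.69. FKBP5, a sensitive target of the glucocorticoid receptor, was at 0.13 (-0.13 to 0.38). TSC22D3, another, had a wide range (0.55, 0.08 to 2.20) and was at 1.78 over its 13 probesets with signal.

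MYB was the only gene of 11 in the estrogen receptor list past 2-fold, with levels of 1.89 in MKN45P and 3.64 in MKN45 (-1.87), followed by HSD17B2 (-0.71) and CTSD (0.69). In the clock list BHLHE41, a repressor of the clock activators, had 2.11 in MKN45P and 4.87 in MKN45 and was lower at all 16 probesets (-1.80, -2.98 to -0.82). NFIL3, whose product opposes activators of clock output genes, had 6.73 in MKN45P and 3.59 in MKN45 and was higher at 4 of 5 probesets (1.21, 0.82 to 1.61). CIPC (-0.66, under the symbol KIAA1737) and NPAS2 (0.55) followed, while PER2 was at 0.18 and CLOCK at 0.14. In thyroid hormone handling (5 with signal, MED12 at 0.39 and MED13 at -0.27), energy metabolism targets of estrogen-related receptors (10 with signal, VEGFA at 0.67 and PDK4 at 0.34) and steroid synthesis (3 with signal, POR at 0.85 and CYP11A1 at 0.47) none passed 2-fold.

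**Figure D4:**
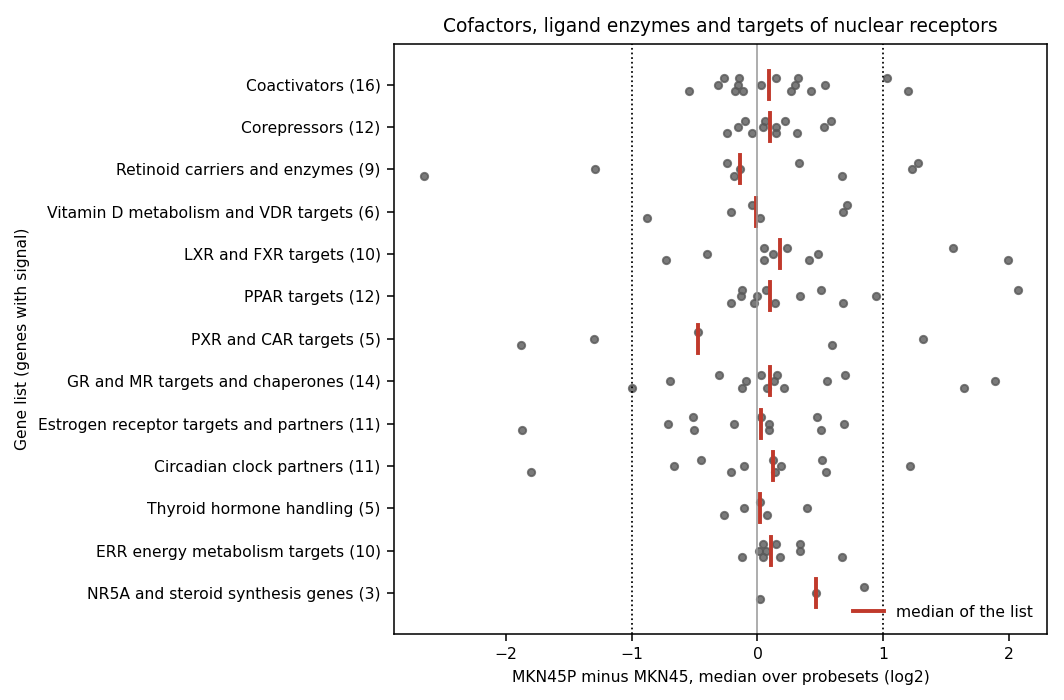
MKN45P minus MKN45 in log2 units, median over probesets, for each gene with signal in 13 lists of cofactors, ligand enzymes and targets of nuclear receptors (GR and MR are the glucocorticoid and mineralocorticoid receptors), with the list median as a bar and 2-fold dotted. Most points lie between the dotted lines, and the genes outside them, from -2.66 (ALDH1A1) to 2.07 (TXNIP), lie in 8 of the 13 lists.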

How the data were processed

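Total RNA of the 2 lines was reduced in ribosomal RNA, turned into cDNA with a whole-transcript kit, fragmented, biotin labelled and hybridised to an exon array, per the labels' protocols. Each array has 1 deposited log2 value per probeset, used here unchanged. The scale was read from the values, which reach 13.48. The submitters' processing notes name Partek and hg18. How the authors corrected background, summarised probes and normalized the arrays is not given in the sources used here. No detection call was used.

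Of 877986 probesets, 286871 with exactly 1 symbol in the platform annotation were used and 3137 with several were left out of gene values. A gene's difference is the median over its probesets of MKN45P minus MKN45. Symbols of the lists were matched to older names through the RefSeq table of GRCh38.p14. Every member with a probeset may be named, from each list the genes with signal past 2-fold and the 2 next largest, and members with a large index; other genes were named after their values were seen. Members and lists were chosen with earlier results of these data known. With 1 array per line, their number limits the precision.

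Calculations ran in Python 3.11.15 (scipy 1.17.1, pandas 2.3.3, statsmodels 0.14.6, numpy 2.4.6). Simulated data kept the probeset levels of 9313 genes. Each probeset's departure from its gene's median difference was exchanged at random among probesets of like level. In them, 50 of 50 genes shifted by 1.5 upward and 50 of 50 downward passed 2-fold, as did 3 of 9113 unshifted genes. For the split, probesets were taken in order of number whatever the strand. Of 100 genes with the later part shifted by 2, all 100 were found, beside 96 of 6629 unshifted ones, among 6729 genes. Shifts of a part close to the cut of 1, where the receptors called lie, were not simulated. The exchange removes structure within a gene and holds no variation between cultures. These counts therefore do not measure false calls between 2 single arrays. Alternatives were 3 other scalings, other summaries of probesets, another signal cut, other filters and own-strand probesets only.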

Additional observations from a re-analysis of the deposited data

How the results depend on the processing

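The number of receptors 2-fold lower in MKN45P was 1 under each of 11 alternatives; the gene was VDR except with the difference of median levels, where it was NR1H3 (-1.11). VDR ranged from -2.23 over probesets with signal to -0.996 with the difference of median levels, and was -1.96 over own-strand probesets, an alternative chosen after seeing the data. Receptors 2-fold higher numbered 1, NR1D2, over probesets with signal only and 0 otherwise. The median over receptors kept its sign except with the mean over probesets (-0.0041). With the 90th percentile as the signal cut, which by construction keeps fewer genes, 7 receptors carried signal, 6 list genes were 2-fold higher and 3 lower, and 0 indices were large. Over all 3821 genes with signal by that cut, 11.7% were 2-fold higher and 2.75% lower. The difference of median levels gave 19 list genes higher and 10 lower, and the cause was not tested. It also gave larger shares over all genes with signal, 13.6% higher and 3.27% lower. Centring on the gene's mean left 3 large indices. Of 234 receptor values under alternatives, 8 moved by more than their interquartile range over probesets divided by 2. Among counts for single lists, 28 of 260 changed by more than 1.5 times, or to or from 0. Among receptors with signal, 4 changed sign under some alternative: ESRRA (-0.48), NR2F6 (0.13) and PPARA (-0.27) with the difference of median levels, ESRRA (-0.21) and RARG (-0.20) with the mean over probesets, RARG (-0.05) over probesets with signal and ESRRA (-0.03) after quantile normalization. No paired analysis was possible because each line has 1 array. Low values are compressed, which limits what can be read of the 20 receptors without signal.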

Other observations

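Probesets that carry a receptor's symbol together with others were not part of the gene values. Those shared by NR2C1 with GEFT and SLC26A10 numbered 6, with a median difference of 0.00 and a range of -0.52 to 1.34. Another 2, annotated to both PPARG and CREB3L2, had probeset numbers of another chromosome than that of PPARG and medians of 7.22 in MKN45P and 5.83 in MKN45, a difference of 1.39. RORA has 6 probesets in the run of the opposite strand, none with signal, with a median difference of 0.16.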
